A study of Mus musculus with 25 samples.

Results

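The Slc25 genes encode the mitochondrial carrier family, and they were taken as every gene whose symbol is Slc25a followed by digits. The rule found 46 genes of the 17885 listed in any of 4 deposited tables of mouse pancreatic islet RNA, and 38 of them were listed in all 4. At least 1 FPKM (read fragments per transcript length, scaled to the library's size, as deposited) in at least 2 libraries of a table was required for a test. That left 36 of 38 listed members in the HFD table, 37 of 45 in the PBS table and 38 of 45 in the db table, and 37 of 44 members passed it in the WT table, where nothing was tested. Of the members, 5 carry aspartate, glutamate or citrate (Slc25a1, Slc25a12, Slc25a13, Slc25a18 and Slc25a22), and 41 carry other substrates or have no settled substrate.

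The study concerns BAF60C, a subunit of the SWI/SNF chromatin remodelling complex that is encoded by Smarcd3. In the first table, called HFD here, 2 BcBKO libraries, from mice with a beta-cell-specific ablation made with Pdx1-cre, stood against 2 flox/flox libraries, and all of these mice had a high-fat diet for 3 months. The Pdx1 promoter is used across the pancreatic lineage, so that the driver by itself does not limit recombination to beta cells. The PBS table held KO_REG3B-Fc, KO_PBS and CTR_PBS islets with 2 libraries each. Which gene was deleted in KO, and on what diet these mice lived, is not stated, and REG3B-Fc is named as an agent without a dose, REG3B being a secreted lectin. The db table compared 2 db_REG3B with 2 db_GFP libraries, with the way REG3B or GFP was delivered not stated. The WT table held 5 WT libraries. Strain, age and sex are not stated for any group. Islets of at least 3 mice went into each sample. The chow-fed BcBKO and flox/flox samples (3 of each) were not analysed here.

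Mitochondrial carriers are nuclear-encoded proteins that sit, with few exceptions, in the inner mitochondrial membrane and exchange metabolites, nucleotides and cofactors between matrix and cytosol. In beta cells they link glucose breakdown to insulin release. ADP/ATP carriers and the phosphate carrier serve ATP synthesis, which closes the ATP-sensitive potassium channel. The aspartate-glutamate carriers and the malate carrier move the reducing power of cytosolic NADH into the matrix as the malate-aspartate shuttle, and the citrate carrier exports citrate for cytosolic acetyl-CoA and NADPH.

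The libraries differed in more than their labels. Acinar markers, genes of the digestive enzyme cells around the islets, held 15.4% and 15.6% of all FPKM for KO_REG3B-Fc, 36.3% and 37.4% for KO_PBS and 17.8% and 17.6% for CTR_PBS. Their share was 6.15% to 47.3% among WT libraries, 2.17% to 8.08% among HFD libraries and 0.0615% to 0.137% among db libraries. The 10 beta cell markers held between 28.6% and 71.7% across the 19 libraries, and none was at 0 in all libraries of a compared group. Because such shares move every other gene's FPKM, changes were measured on log2(FPKM + 1) after each library was divided by the median, over genes, of its ratio to the mean library (median scaling). On the deposited scale the median gene shifted by −0.44 for KO_PBS against CTR_PBS and by 0.53 for KO_REG3B-Fc against KO_PBS (log2). Smarcd3 was listed at 3.11 and 2.40 FPKM in the libraries labelled BcBKO, against 2.57 and 2.55 FPKM in flox/flox, while KO_PBS libraries read 0.75 and 1.09 FPKM and CTR_PBS libraries 1.03 and 1.15 FPKM. The groups overlapped in both tables, and the tests missed the threshold (log2 changes 0.01 and 0.14 after scaling, adjusted p of 1.00 and 0.277), so the transcript level did not separate these labels. In db_REG3B it was lower, at 1.29 and 1.61 FPKM against 3.18 and 2.61 FPKM in db_GFP (−0.63, adjusted p = 0.0021). Gene-level FPKM do not show which exons were counted. In whole islets fewer cells of a type and less RNA per cell cannot be told apart. The labels do not say that libraries of a group came from separate mice beyond the pools, so p-values measure only the spread between these samples, and with 2 libraries against 2 an exact permutation test could not go below p = 0.333.

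A few carriers made up most of the family's transcript. Slc25a3, the phosphate carrier, had the highest mean in all 8 groups, between 133 FPKM in WT and 291 FPKM in db_GFP. It was followed by Slc25a5, the ADP/ATP carrier known as Ant2, with group means of 105 to 242 FPKM. Slc25a4, the ADP/ATP carrier Ant1 of muscle and heart, and Slc25a39, which brings glutathione into the matrix, came next. The first 3 carriers took 44.3% to 51.5% of the summed Slc25 FPKM of a group, and the first 8 took 68.7% to 74.1%. The third place was held by Slc25a39 in both HFD groups and by Slc25a4 in the other 6.

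By the mean over the 8 groups the order of the most expressed carriers was Slc25a3 (200.1 FPKM), Slc25a5 (144 FPKM), Slc25a4 (110.0 FPKM), Slc25a39 (91.5 FPKM), Slc25a1 (51.8 FPKM), Slc25a11 (28.5 FPKM), Slc25a44 (25.1 FPKM) and Slc25a51 (24.3 FPKM). Slc25a1 is the citrate carrier, Slc25a11 the malate/2-oxoglutarate carrier, Slc25a44 a transporter of branched-chain amino acids and Slc25a51 the importer of NAD. In KO_REG3B-Fc, CTR_PBS, db_REG3B, db_GFP and flox/flox the libraries of each of the first 4 carriers lay apart from those of the next in order. In BcBKO Slc25a5 and Slc25a39 overlapped, in KO_PBS Slc25a4 and Slc25a39 overlapped, and in WT none of the first 3 was apart from the next. The plot of levels by library shows this order. Within each group its own first 8 carriers were the same before and after median scaling, though they differed between groups. GENCODE M21 names 1 pseudogene with a symbol that begins with Slc25a, and its sequence was not compared with the members here. Any reads that Slc25a5 shares with copies of it in the genome could not be assigned with certainty.

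**Figure D1:**
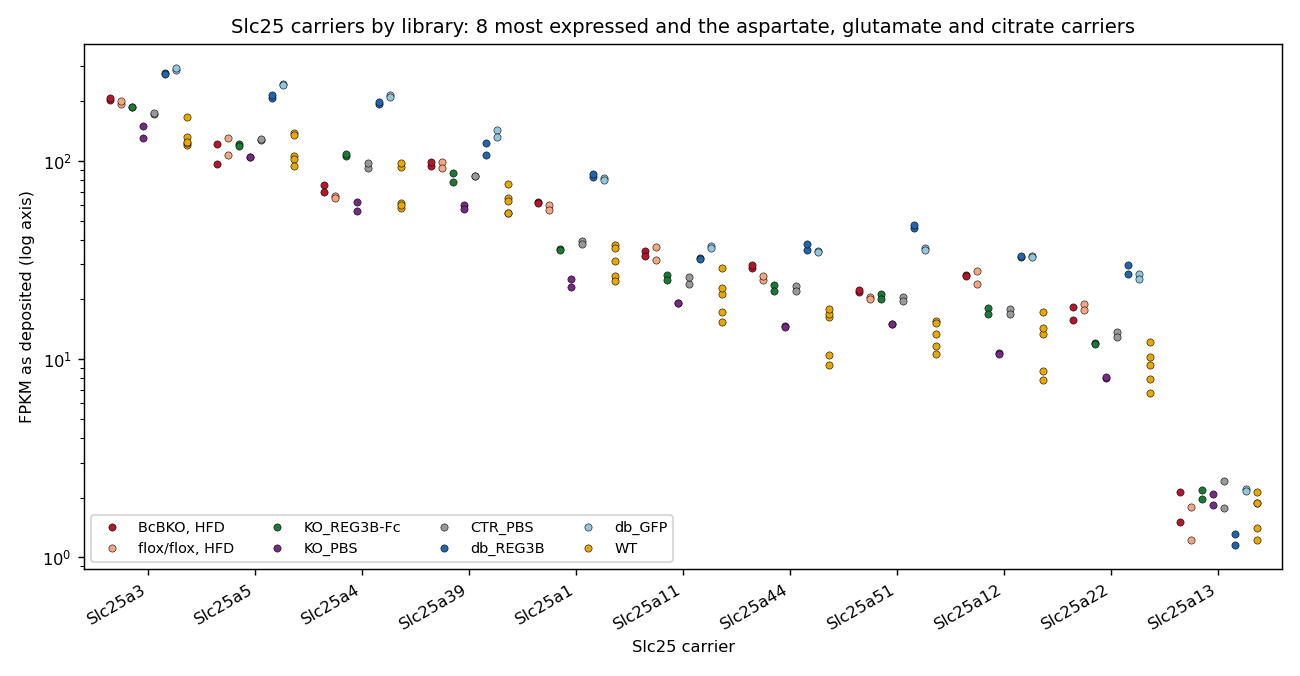
FPKM as deposited on a log axis for the 8 most expressed Slc25 carriers and for Slc25a12, Slc25a22 and Slc25a13, with 1 point per library, coloured by group (2 libraries per group, 5 for WT). Slc25a3 is highest in every group, Slc25a13 stays between 1.15 and 2.42 FPKM, and the db libraries lie above the other tables for most carriers, a difference between tables that was not tested.

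The carriers of aspartate, glutamate and citrate together took 11.5% of the summed Slc25 FPKM in BcBKO HFD and 11.5% in flox/flox HFD, 8.05% in KO_REG3B-Fc, 7.56% in KO_PBS and 8.77% in CTR_PBS, 10.8% in db_REG3B and 9.82% in db_GFP, and 8.53% in WT. Slc25a1 held the larger part, with group means of 24.2 to 84.2 FPKM. Slc25a12, the calcium-regulated aspartate-glutamate carrier also called aralar, had group means of 10.7 to 32.9 FPKM and was the 11th of the 46 members. Slc25a13, the other aspartate-glutamate carrier, called citrin and known best from liver, had means of only 1.23 to 2.19 FPKM. Slc25a22, a glutamate carrier, ranged from 8.11 to 28.2 FPKM. The second glutamate carrier, Slc25a18, was at or below 0.1 FPKM in each of the 15 libraries that list it, was not listed in the HFD table and was not tested.

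Of the remaining members, Slc25a17, a carrier of the peroxisomal membrane, Slc25a28, an iron importer also called mitoferrin 2, Slc25a36, a pyrimidine nucleotide carrier, and Slc25a23, a calcium-regulated ATP-Mg/phosphate carrier, had means over the groups of 19.9 to 23.4 FPKM. At the low end, Slc25a47 and Slc25a43 averaged 0.605 and 0.525 FPKM over the groups that list them. Slc25a48, Slc25a31, Slc25a34, Slc25a2, Slc25a18, Slc25a41 and Slc25a21 averaged 0.201 FPKM or less. Slc25a31 is the ADP/ATP carrier of the testis and Slc25a2 an ornithine carrier. Since the values carry no read counts, read depth is unknown and no detection limit can be given for these genes.

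Across the 5 WT libraries the summed Slc25 FPKM had a median of 653, a lowest value of 526 and a highest value of 741. Slc25a27, an uncoupling-protein-like carrier known from brain, spread most among members over 0.5 FPKM, from 0.41 through a median of 0.62 to 3.65 FPKM. Slc25a45 ranged from 0.24 through 1.16 to 1.66 FPKM and Slc25a35 from 3.42 through 7.42 to 7.97 FPKM. The lowest value of both was in WT 4, which was also lowest in Slc25a10, the dicarboxylate carrier (1.40 FPKM against a median of 2.20 FPKM). WT 4 had the lowest acinar share (6.15%), and the other WT libraries had 30.1% to 47.3%. The part of acinar RNA in these values was not tested. Slc25a32, the folate carrier, had a coefficient of variation of 5.84% after scaling.

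Whether the ablation changed the carriers under a high-fat diet was asked with the HFD libraries, and no carrier passed the threshold there. Of 36 members tested by limma, 0 were higher and 0 lower in BcBKO at an adjusted p under 0.05, where 0.00865% of all 11560 genes were called, and 1 member had an unadjusted p under 0.05. The authors' deposited table likewise called 0 of 36 members, with 0.164% of genes called. No cell type marker was called in that table either. The median log2 change of the members was −0.02 and that of all genes tested was 0.00. The libraries of the groups did not overlap for 11 of 36 members (30.6%) and for 27.3% of all genes.

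The smallest p belonged to Slc25a47, a carrier known mainly from liver, at 0.49 and 0.85 FPKM in BcBKO against 1.41 and 1.15 FPKM in flox/flox (log2 change −0.50, SE 0.18, adjusted p = 1.00). The gene passed the filter through flox/flox alone, the group where it was higher, so its test and the lack of overlap support nothing by themselves. Slc25a38, the glycine carrier used in heme synthesis, had 5.16 and 6.51 FPKM in BcBKO and 6.95 and 7.63 FPKM in flox/flox (−0.36, SE 0.16, adjusted p = 1.00). Slc25a24, an ATP-Mg/phosphate carrier, had 3.02 and 2.91 FPKM in BcBKO and 1.89 and 2.26 FPKM in flox/flox (0.31, SE 0.15, adjusted p = 1.00).

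The carriers of aspartate, glutamate and citrate lay close together in these islets. Slc25a1 had 61.8 and 61.0 FPKM in BcBKO and 59.9 and 56.7 FPKM in flox/flox, a log2 change of −0.01 (SE 0.11) after scaling. Slc25a12 had 26.5 and 26.2 FPKM in BcBKO, inside the 27.9 and 24.0 FPKM of flox/flox. Slc25a13 had 1.51 and 2.14 FPKM in BcBKO and 1.22 and 1.80 FPKM in flox/flox, and Slc25a22 had 15.8 and 18.4 FPKM in BcBKO and 18.9 and 17.7 FPKM in flox/flox. Their log2 changes ran from −0.18 to 0.12, and none passed the threshold. Among the 32 other members the range was −0.50 to 0.31. With 2 residual degrees of freedom these values do not show that the carriers were alike in both genotypes.

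Relative to the median gene, KO_PBS islets had more transcript of the phosphate carrier, of the ADP/ATP carrier Slc25a5 and of both dicarboxylate carriers, and less of the aspartate-glutamate carrier Slc25a12 and the glutamate carrier Slc25a22. Of these calls only those of Slc25a5 and the dicarboxylate carrier Slc25a10 were made whichever library was left out. After median scaling 12 of 37 members were higher and 5 lower in KO_PBS than in CTR_PBS by limma at an adjusted p under 0.05. Of all 11789 genes, 25% were called higher and 19.6% lower, so that the members' share of calls, 45.9%, was near the background of 44.5%. The median log2 change was 0.02 for the members and 0.00 for all genes. As deposited, where the median gene itself was lower, 2 members were higher and 29 lower, against 8.66% of genes higher and 81.5% lower. The authors' deposited table called 3 members higher (Slc25a5, Slc25a10 and Slc25a45) and 5 lower (Slc25a4, Slc25a12, Slc25a25, Slc25a29 and Slc25a42), with 31.4% of genes called. Summed over the family, median-scaled FPKM were 765 and 795 in KO_PBS and 733 and 744 in CTR_PBS, while deposited FPKM were 588 and 601 in KO_PBS and 815 and 815 in CTR_PBS.

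The mitochondrial carriers of small dicarboxylates both rose relative to the median gene. Slc25a10, which exchanges malate or succinate for phosphate, had 3.06 and 3.36 median-scaled FPKM in KO_PBS against 1.99 and 1.77 in CTR_PBS. This was a log2 change of 0.55 (SE 0.07, adjusted p = 0.00029), and it stayed higher on the deposited scale, where the libraries read 2.35 and 2.54 FPKM in KO_PBS, against 2.21 and 1.94 FPKM in CTR_PBS. Slc25a11, the malate/2-oxoglutarate carrier, had 25.1 and 25.3 median-scaled FPKM in KO_PBS and 21.5 and 23.6 in CTR_PBS (0.15, SE 0.05, adjusted p = 0.0437), but was lower on the deposited scale (−0.36, adjusted p = 0.000165).

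The ADP/ATP carriers parted. Slc25a5 had 137 and 139 median-scaled FPKM in KO_PBS against 115 and 118 in CTR_PBS (0.24, SE 0.03, adjusted p = 0.000682). Slc25a4 had 80.7 and 73.7 median-scaled FPKM in KO_PBS and 83.2 and 89.0 in CTR_PBS, a difference that missed the threshold (−0.16, SE 0.06, adjusted p = 0.0522). As deposited both were lower, Slc25a5 by −0.29 (adjusted p = 5.83e-05) and Slc25a4 by −0.68 (adjusted p = 3.65e-06). Slc25a3, the phosphate carrier, had 169 and 198 median-scaled FPKM in KO_PBS and 155 and 159 in CTR_PBS (0.22, SE 0.07, adjusted p = 0.0291), with the reverse sign on the deposited scale (−0.31). The authors' deposited table called Slc25a4 lower (−0.20, adjusted p = 0.0144) and did not call Slc25a3 (0.19, adjusted p = 0.27) or Slc25a11 (0.12, adjusted p = 0.414).

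Further members called higher after median scaling included low-level ones. Slc25a45 had 2.24 and 1.42 median-scaled FPKM in KO_PBS and 0.791 and 0.557 in CTR_PBS (0.74, SE 0.15, adjusted p = 0.00369), and it was called higher on all 3 scales. It was tested only because KO_PBS, where it was high, took it over the filter, so that its calls in this table support nothing by themselves. Slc25a33, a pyrimidine nucleotide carrier, had 1.65 and 1.63 median-scaled FPKM in KO_PBS and 0.917 and 1.10 in CTR_PBS (0.40, SE 0.07, adjusted p = 0.00196). Slc25a24 (0.36, SE 0.09, adjusted p = 0.0152) and Slc25a27 (0.32, SE 0.07, adjusted p = 0.00531) also rose, and the calls of Slc25a33, Slc25a24 and Slc25a27 were lost on the deposited scale. Slc25a35, an orphan carrier, had 6.06 and 5.94 median-scaled FPKM in KO_PBS and 4.67 and 4.99 in CTR_PBS (0.26, SE 0.08, adjusted p = 0.0268), with the sign reversed on the deposited scale (−0.18) and after composition scaling (−0.04), in which acinar genes, REG genes and insulin were left out and the rest set to an equal sum. Slc25a35 shares 1151 of its 3677 exonic bases with Rangrf, a gene on the opposite strand, and without a stated strand-specific protocol their reads cannot be told apart. Rangrf had 4.56 and 4.70 median-scaled FPKM in KO_PBS, within the 3.89 and 5.90 of CTR_PBS. Slc25a20, the acylcarnitine carrier, Slc25a15, the ornithine carrier, and Slc25a13 completed the 12.

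The members that fell were lower on the other scales too, as they had to be, since the median gene itself was lower there. Slc25a29, a carrier of basic amino acids, had 4.25 and 4.67 median-scaled FPKM in KO_PBS and 5.68 and 6.08 in CTR_PBS (−0.33, SE 0.08, adjusted p = 0.00878). Slc25a42, the coenzyme A carrier, had 4.94 and 5.61 in KO_PBS and 6.81 and 6.81 in CTR_PBS (−0.32, SE 0.06, adjusted p = 0.00396). Slc25a25, a calcium-regulated ATP-Mg/phosphate carrier, had 7.55 and 7.97 in KO_PBS and 9.22 and 9.64 in CTR_PBS (−0.25, SE 0.05, adjusted p = 0.00383). The authors' deposited table gives log2 fold changes of −0.44, −0.41 and −0.32 for Slc25a29, Slc25a42 and Slc25a25, with adjusted p of 0.0408, 0.00583 and 0.00866.

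The other members that fell were Slc25a12 and Slc25a22. Slc25a12 had 14.0 and 14.0 median-scaled FPKM in KO_PBS and 16.0 and 15.3 in CTR_PBS (−0.15, SE 0.04, adjusted p = 0.0248). Slc25a22 had 10.5 and 10.8 in KO_PBS and 12.3 and 11.8 in CTR_PBS (−0.16, SE 0.05, adjusted p = 0.0185). The groups did not overlap for either gene. The authors' deposited table called Slc25a12 lower (−0.21, adjusted p = 0.0442) and did not call Slc25a22 (−0.23, adjusted p = 0.0797). Slc25a1 had 30.1 and 33.4 median-scaled FPKM in KO_PBS and 35.6 and 34.7 in CTR_PBS and missed the threshold (−0.14, SE 0.05, adjusted p = 0.054). Slc25a13 went the other way, with 2.39 and 2.77 median-scaled FPKM in KO_PBS and 1.59 and 2.21 in CTR_PBS (0.31, SE 0.10, adjusted p = 0.0403), and its deposited FPKM overlapped (1.84 and 2.09 in KO_PBS, 1.77 and 2.42 in CTR_PBS). The median of these 4 was −0.15, beside 0.04 for the 33 other members and 0.00 for all genes. Each of these calls was lost in some fits with a library left out, where the changes kept their sign. Without CTR_PBS 1 the changes of Slc25a12, Slc25a22 and Slc25a13 were −0.12, −0.14 and 0.15 and missed the threshold. Slc25a12 also missed it without KO_PBS 1 (−0.15) or KO_PBS 2 (−0.16), Slc25a22 without KO_PBS 1 (−0.15) and Slc25a13 without KO_PBS 2 (0.24). Of all 17 calls, those of Slc25a5, Slc25a10, Slc25a25, Slc25a27, Slc25a33 and Slc25a42 were made whichever library was left out. So was that of Slc25a45, but with the limit of the filter given above it supports nothing by itself.

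The enzymes that work with these carriers split in the same comparison. Of 19 enzymes of the malate-aspartate shuttle and the citrate and pyruvate cycles, 3 were higher and 7 lower in KO_PBS (52.6% together, beside 44.5% of all genes). Pcx, pyruvate carboxylase, fell by 0.42 (log2, SE 0.05, adjusted p = 0.000221), Acly, which splits exported citrate, fell by 0.35 (SE 0.03, adjusted p = 8.54e-05), and Idh3a, of the citrate cycle, fell by 0.32 (SE 0.05, adjusted p = 0.00149). Idh1, Glud1 and Idh2 were higher on this scale, by 0.37, 0.29 and 0.14, and all 3 were lower on the deposited scale. Ucp2, an uncoupling protein of the same family under another symbol, was higher by 0.19 (adjusted p = 0.0144). Its sign turned on the deposited scale. Mtch1, a relative in the outer membrane, was lower by −0.33 (adjusted p = 0.000186). Of the 9 genes of the import machinery that inserts carriers, limma called 0, and 2 had an unadjusted p under 0.05.

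**Figure D2:**
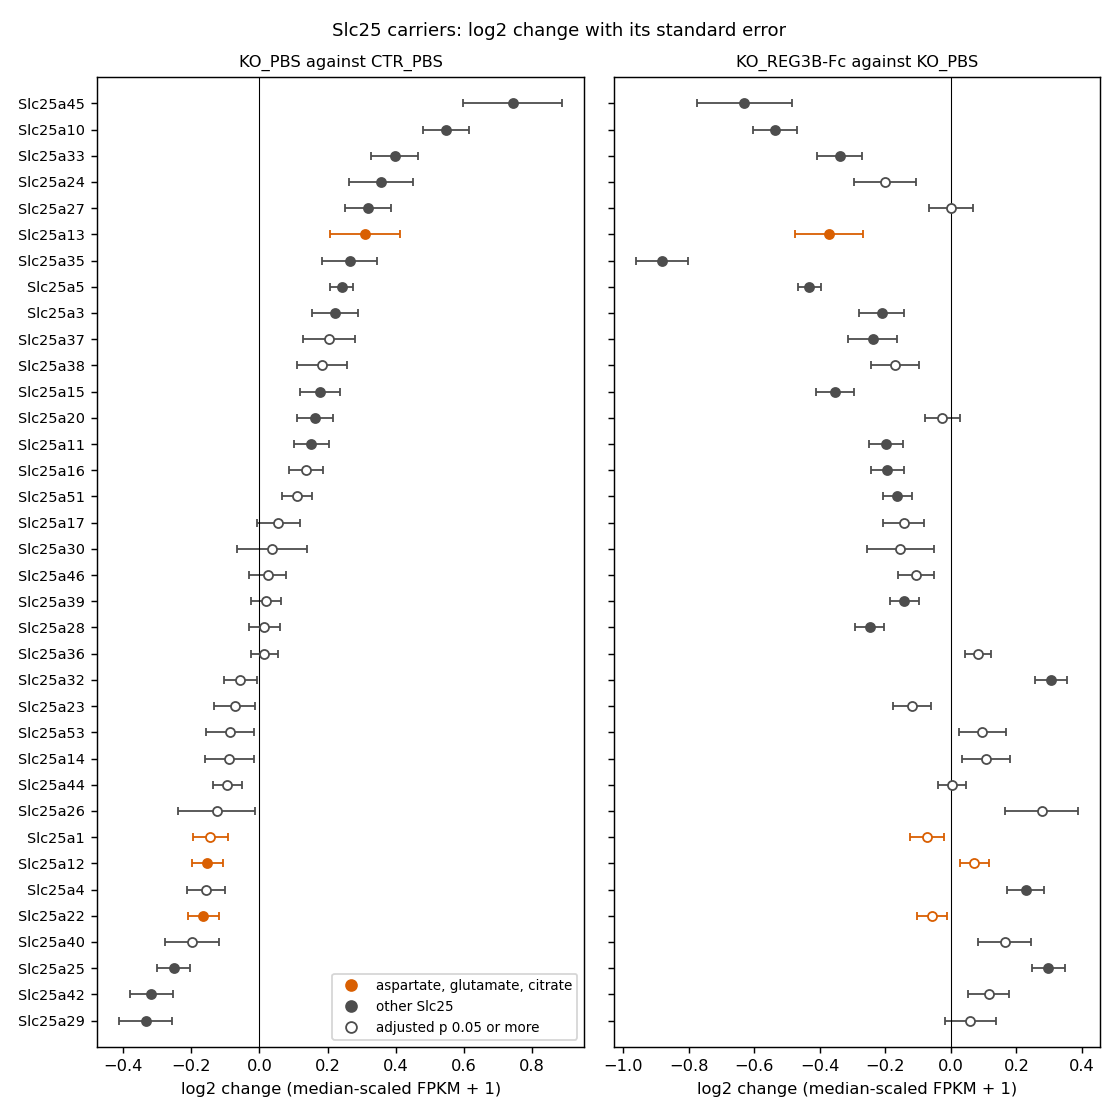
Log2 change of median-scaled FPKM + 1 for 36 of the 37 Slc25 carriers tested, with its standard error, for KO_PBS against CTR_PBS and KO_REG3B-Fc against KO_PBS (2 libraries per group), ordered by the change in KO_PBS. Filled points passed an adjusted p under 0.05, and the aspartate, glutamate and citrate carriers are in orange. The comparisons share the KO_PBS libraries, so that opposite signs in them are not independent.

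Markers of other cells moved with these values. All 21 acinar markers and all 16 tested immune markers were higher in KO_PBS, and 8 of 10 beta cell markers were lower (medians 1.46, 1.496 and −0.41). Higher too after median scaling were 5 of 7 tested stellate and 6 of 8 endothelial markers. So were 5 of 6 tested duct and all 5 delta and PP cell markers. As deposited, summed endothelial markers were lower in KO_PBS, at 144 and 142 FPKM against 185 and 188 FPKM in CTR_PBS. Duct sums were lower too (237 and 242 against 278 and 259 FPKM). Delta and PP cell sums were 3960 and 4286 FPKM against 4771 and 4988 FPKM. Alpha cell sums were 5836 and 6068 FPKM against 7498 and 7486 FPKM. Only stellate sums of these were higher (70.35 and 69.34 against 52.23 and 50.2 FPKM). The beta cell share of all FPKM was 40.9% and 40.2% for KO_PBS, against 60.4% and 61.3% for CTR_PBS. Summed immune markers were at 616 and 620 FPKM in KO_PBS and at 281 and 275 FPKM in CTR_PBS, with Ms4a1 alone listed at 0 in both CTR_PBS libraries. No acinar marker was at 0 in any of these libraries. The part of acinar and immune RNA in the carrier changes was not tested. Fewer members were called whichever library was left out, and fewer of all genes were called lower in those fits too.

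Whether REG3B-Fc shifted the carriers of knockout islets was compared in the same table. Relative to the median gene, more carriers fell than rose with REG3B-Fc. Of 37 members 3 were higher and 14 lower in KO_REG3B-Fc than in KO_PBS, where 20% of all genes were called higher and 24.8% lower (44.9% together). The median log2 change was −0.12 for the members and 0.00 for all genes. As deposited, 30 members were higher and 1 lower, against 86.2% and 6.97% of genes. The number of members called changed with the library left out, and the share of all genes called in those fits is not given here. The authors' deposited table called 3 members higher (Slc25a4, Slc25a25 and Slc25a32) and 6 lower (Slc25a5, Slc25a10, Slc25a13, Slc25a15, Slc25a35 and Slc25a45), with 29.9% of genes called. Of the 17 calls by limma here, those of Slc25a5, Slc25a10, Slc25a15, Slc25a25, Slc25a28, Slc25a32, Slc25a33 and Slc25a35 were made whichever library was left out. The comparison shares its KO_PBS libraries with the preceding one.

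Slc25a35 had the largest change, with 3.12 and 2.50 median-scaled FPKM in KO_REG3B-Fc against 6.06 and 5.94 in KO_PBS (−0.88, SE 0.08, adjusted p = 4.75e-05). The deposited FPKM were also apart, at 3.74 and 2.92 in KO_REG3B-Fc and 4.66 and 4.49 in KO_PBS. It was the only member called lower on all 3 scales, and it was called whichever of the 4 libraries was left out. The authors' deposited table gives −1.05 (adjusted p = 2.96e-06). Rangrf, with which it shares exonic bases, had 4.49 and 5.16 median-scaled FPKM in KO_REG3B-Fc and 4.56 and 4.70 in KO_PBS (0.05, SE 0.14, adjusted p = 0.806).

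The ADP/ATP carriers again parted, here with Slc25a5 lower and Slc25a4 higher. Slc25a5 had 101 and 102 median-scaled FPKM in KO_REG3B-Fc against 137 and 139 in KO_PBS (−0.43, SE 0.03, adjusted p = 2.43e-05). Slc25a4 had 87.9 and 93.2 in KO_REG3B-Fc and 80.7 and 73.7 in KO_PBS (0.23, SE 0.06, adjusted p = 0.011). The authors' deposited table gives −0.41 for Slc25a5 (adjusted p = 1.59e-11) and 0.26 for Slc25a4 (adjusted p = 0.00147). On the deposited scale Slc25a5 was higher, by 0.20 (adjusted p = 0.000652), and Slc25a4 was higher by 0.85. Without KO_PBS 2 or KO_REG3B-Fc 2 the call of Slc25a4 was lost, at 0.17 and 0.19.

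**Figure D3:**
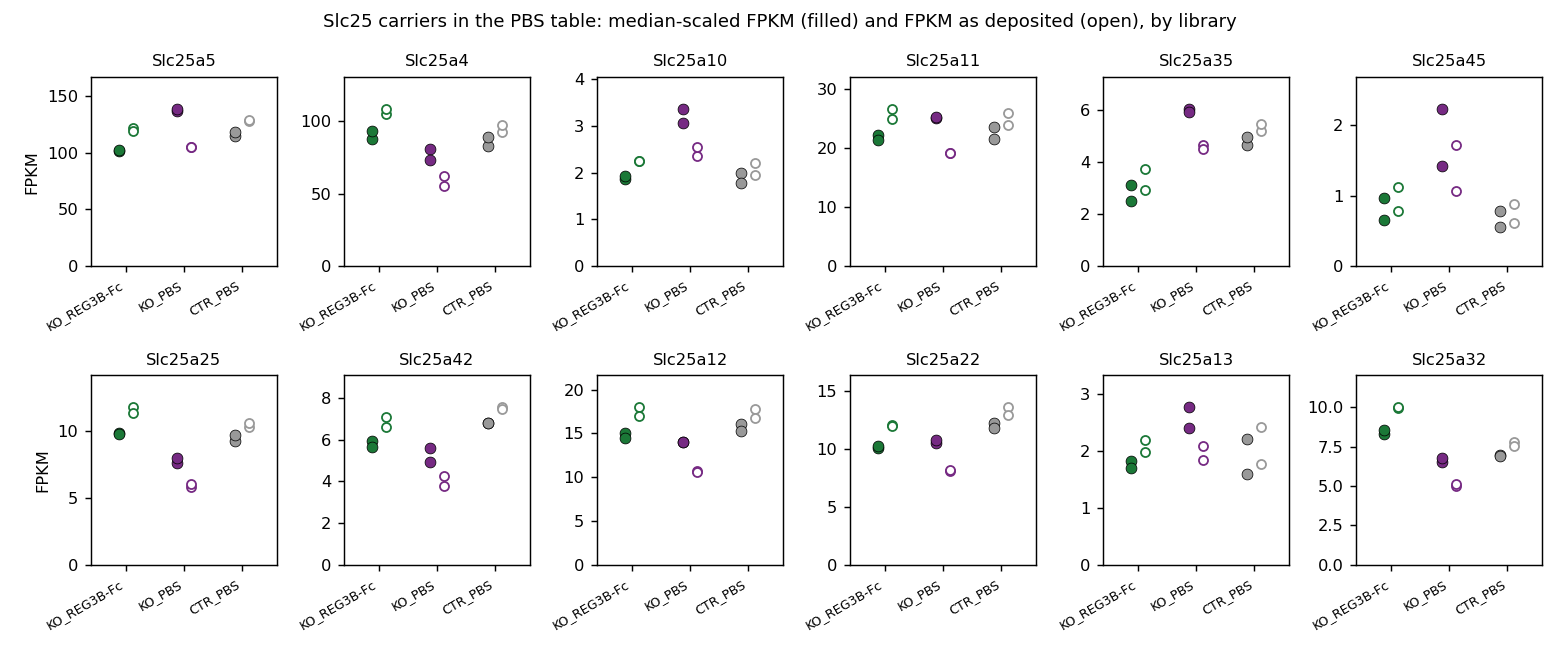
Values of 12 Slc25 carriers in each library of the PBS table, with median-scaled FPKM as filled points and FPKM as deposited as open points, for KO_REG3B-Fc, KO_PBS and CTR_PBS (2 libraries each, axes from 0). Slc25a35 is lowest in KO_REG3B-Fc on both scales, whereas the place of KO_PBS for Slc25a5 and Slc25a11 depends on the scale.

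Both dicarboxylate carriers fell relative to the median gene. Slc25a10 had 1.87 and 1.93 median-scaled FPKM in KO_REG3B-Fc and 3.06 and 3.36 in KO_PBS (−0.54, SE 0.07, adjusted p = 0.000343), and Slc25a11 had 22.3 and 21.3 in KO_REG3B-Fc and 25.1 and 25.3 in KO_PBS (−0.20, SE 0.05, adjusted p = 0.0148). Slc25a11 was higher on the deposited scale (0.41). Slc25a10 kept its sign there (−0.09) but was not called, at 2.24 and 2.25 FPKM in KO_REG3B-Fc against 2.35 and 2.54 FPKM in KO_PBS. Slc25a45, with the limit of the filter given above, had 0.659 and 0.968 median-scaled FPKM in KO_REG3B-Fc, against 2.24 and 1.42 in KO_PBS (−0.63, SE 0.15, adjusted p = 0.00824). Slc25a15 (−0.35), Slc25a33 (−0.34) and Slc25a28 (−0.25) also fell, with adjusted p of 0.00149, 0.00443 and 0.00252, and all 3 had the opposite sign on the deposited scale (0.12, 0.02 and 0.35). The largest rises were those of Slc25a32, with 8.30 and 8.57 in KO_REG3B-Fc and 6.50 and 6.78 in KO_PBS (0.30, SE 0.05, adjusted p = 0.00132), and Slc25a25, with 9.81 and 9.72 in KO_REG3B-Fc and 7.55 and 7.97 in KO_PBS (0.30, SE 0.05, adjusted p = 0.0016).

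Of the aspartate, glutamate and citrate carriers only Slc25a13 passed, with 1.83 and 1.70 median-scaled FPKM in KO_REG3B-Fc and 2.39 and 2.77 in KO_PBS (−0.37, SE 0.10, adjusted p = 0.0193), and its sign turned on the deposited scale (0.06). That call was lost without KO_PBS 2 (−0.30), KO_REG3B-Fc 1 (−0.40) or KO_REG3B-Fc 2 (−0.33). Slc25a12 had 15.0 and 14.5 in KO_REG3B-Fc and 14.0 and 14.0 in KO_PBS (0.07, SE 0.04, adjusted p = 0.226). Slc25a1 (−0.07, adjusted p = 0.292) and Slc25a22 (−0.06, adjusted p = 0.322) did not pass either. The median of the 4 was −0.07, beside −0.14 for the 33 other members. Among the 19 partner enzymes 7 were higher and 4 lower (57.9% together, beside 44.9% of all genes). Gpd2, which passes electrons from the glycerol phosphate shuttle to the respiratory chain, rose by 0.52 (SE 0.05, adjusted p = 0.000109), Acly by 0.42 (SE 0.03, adjusted p = 2.97e-05) and Pcx by 0.32 (SE 0.05, adjusted p = 0.00117). Idh1, Glud1 and Cs were lower by −0.46, −0.27 and −0.17, with the opposite sign on the deposited scale. All 21 acinar and all 16 tested immune markers were lower in KO_REG3B-Fc, while 7 of 10 beta cell, 5 of 6 alpha cell and 4 of 5 delta and PP cell markers were higher. Their part in the carrier values was not tested.

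Against CTR_PBS, the treated knockout islets differed in fewer carriers. Of 37 members 2 were higher and 5 lower in KO_REG3B-Fc (18.9% together). Of all genes, 5.59% were called higher and 5.1% lower (10.7% together). As deposited these shares were 13.5% of members and 19.6% of genes. The median log2 change of the members was −0.05 and that of all genes 0.00. For the 4 tested aspartate, glutamate and citrate carriers it was −0.15, beside −0.03 for the 33 other members. Of these 4, 2 were called, and 0 as deposited. Slc25a35 had 3.12 and 2.50 median-scaled FPKM in KO_REG3B-Fc against 4.67 and 4.99 in CTR_PBS (−0.62, SE 0.08, adjusted p = 0.00243), the only call kept whichever library was left out. Slc25a28, Slc25a22, Slc25a1 and Slc25a5 were lower by −0.23, −0.22, −0.22 and −0.19 (adjusted p of 0.0146, 0.0181, 0.036 and 0.0113). These calls were lost on the deposited scale, where only 3 of the 7 were kept (Slc25a27, Slc25a32 and Slc25a35). All 7 were kept after composition scaling. Slc25a22 had 10.1 and 10.2 in KO_REG3B-Fc and 12.3 and 11.8 in CTR_PBS, and Slc25a1 had 29.99 and 30.2 in KO_REG3B-Fc and 35.6 and 34.7 in CTR_PBS. Slc25a27, with 1.51 and 1.34 in KO_REG3B-Fc and 0.917 and 0.968 in CTR_PBS (0.32, SE 0.07, adjusted p = 0.0209), and Slc25a32 (0.25, SE 0.05, adjusted p = 0.0163) were higher. Leaving out any of the 4 libraries ended both calls of higher members and most calls of lower ones, while calls among all genes fell as well. Acinar markers were lower here as well, 18 of 21, and 5 of 6 alpha cell and all 5 delta and PP cell markers were higher. Their part was not tested.

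In db islets with REG3B the largest log2 changes of carriers were falls of low-level members. Of 38 members tested 11 were higher and 9 lower in db_REG3B than in db_GFP, where 18.6% of all 12507 genes were called higher and 26.7% lower. The median log2 change was 0.02 for the members and −0.01 for all genes. The members' calls made up 52.6% and those of all genes 45.3%. The authors' deposited table called 6 members higher (Slc25a25, Slc25a27, Slc25a29, Slc25a36, Slc25a44 and Slc25a51) and 4 lower (Slc25a13, Slc25a24, Slc25a33 and Slc25a45), with 34.4% of genes called. As deposited, 5 members were higher and 12 lower (12.2% and 30.8% of genes), and after composition scaling 18 were higher and 6 lower (38.6% and 19.8%). Summed deposited FPKM of the family were 1357 and 1366 in db_REG3B and 1454 and 1436 in db_GFP. Below, FPKM of db libraries are as deposited unless stated, whereas log2 changes and adjusted p are those after median scaling.

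Slc25a24 had 2.77 and 2.59 FPKM in db_REG3B against 7.12 and 6.65 FPKM in db_GFP, a log2 change of −1.05 (SE 0.08, adjusted p = 2.79e-05). Slc25a33 had 2.27 and 2.62 FPKM in db_REG3B against 5.60 and 6.45 FPKM in db_GFP (−0.98, SE 0.09, adjusted p = 9.16e-05). The groups of both genes lay far apart, and the authors' deposited table gives −1.26 and −1.20 (adjusted p of 5.96e-12 and 2.13e-05). Slc25a24 takes up ATP-Mg in exchange for phosphate under control of calcium, and Slc25a33 carries pyrimidine nucleotides into the matrix. Slc25a33 shares 281 of its 1887 exonic bases with Gm13068 on the opposite strand. Their relatives differed. Slc25a23, another ATP-Mg/phosphate carrier, was lower by −0.22 (adjusted p = 0.0094). Slc25a25, of the same kind, was higher, with 18.8 and 20.4 FPKM in db_REG3B and 17.5 and 16.2 FPKM in db_GFP (0.26, SE 0.06, adjusted p = 0.00761), and Slc25a36, the second pyrimidine nucleotide carrier, had 26.6 and 27.2 FPKM in db_REG3B and 24.9 and 23.9 FPKM in db_GFP (0.19, SE 0.05, adjusted p = 0.0128).

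Slc25a13 also fell, so that the scarcer aspartate-glutamate carrier had 1.31 and 1.15 FPKM in db_REG3B against 2.22 and 2.15 FPKM in db_GFP (−0.48, SE 0.09, adjusted p = 0.00402). The authors' deposited table gives −0.75 (adjusted p = 0.0408). Slc25a12, the major one, had 32.7 and 33.2 FPKM as deposited in db_REG3B, overlapping the 33.0 and 32.7 FPKM of db_GFP. After median scaling it had 33.8 and 33.3 in db_REG3B and 32.3 and 32.2 in db_GFP, without overlap. It missed the threshold there (0.06, SE 0.04, adjusted p = 0.315). Slc25a22 had 26.7 and 29.7 FPKM in db_REG3B and 26.8 and 25.5 FPKM in db_GFP (0.16, SE 0.05, adjusted p = 0.0447), and Slc25a1 had 82.8 and 85.6 FPKM in db_REG3B and 81.6 and 79.7 FPKM in db_GFP (0.12, SE 0.04, adjusted p = 0.0349). Neither of these rises passed on the deposited scale. The median of the 4 was 0.09, beside 0.00 for the 34 other members.

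Also called lower were Slc25a45, with 0.63 and 0.74 FPKM in db_REG3B and 1.98 and 1.57 FPKM in db_GFP (−0.69, SE 0.11, adjusted p = 0.00145), and Slc25a43, with 0.89 and 0.68 FPKM in db_REG3B and 1.57 and 1.92 FPKM in db_GFP (−0.59, SE 0.11, adjusted p = 0.00412). Both passed the filter through db_GFP alone, the group where they were higher, so their calls support nothing by themselves, and no substrate is named here for either. Slc25a30, an uncoupling-protein-like carrier known from kidney, had 3.61 and 4.62 FPKM in db_REG3B and 5.89 and 6.41 FPKM in db_GFP (−0.44, SE 0.10, adjusted p = 0.00768). The authors' deposited table did not call Slc25a43 (adjusted p = 0.176) or Slc25a30 (adjusted p = 0.136). The calls of Slc25a23 (−0.22) and Slc25a17 (−0.20) were lost after composition scaling.

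Slc25a51, the NAD importer, rose most among the higher members, with 46.0 and 47.6 FPKM in db_REG3B against 36.5 and 35.4 FPKM in db_GFP (0.43, SE 0.04, adjusted p = 0.00013). The authors' deposited table gives 0.47 (adjusted p = 4.53e-15). Slc25a27 had 2.52 and 2.71 FPKM in db_REG3B and 1.75 and 1.84 FPKM in db_GFP (0.41, SE 0.08, adjusted p = 0.00534). Slc25a35 had 5.34 and 5.99 FPKM in db_REG3B and 4.38 and 4.50 FPKM in db_GFP (0.34, SE 0.07, adjusted p = 0.00707), with Rangrf at 8.59 and 11.5 FPKM in db_REG3B and 9.01 and 10.9 FPKM in db_GFP. The authors' deposited table did not call Slc25a35 (0.43, adjusted p = 0.18). Slc25a29 had 12.0 and 13.3 FPKM in db_REG3B and 10.2 and 10.8 FPKM in db_GFP (0.30, SE 0.06, adjusted p = 0.00584). Slc25a32, Slc25a28 and Slc25a44 were also higher after median scaling, by 0.23, 0.20 and 0.13, and these calls and that of Slc25a36 were lost on the deposited scale.

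**Figure D4:**
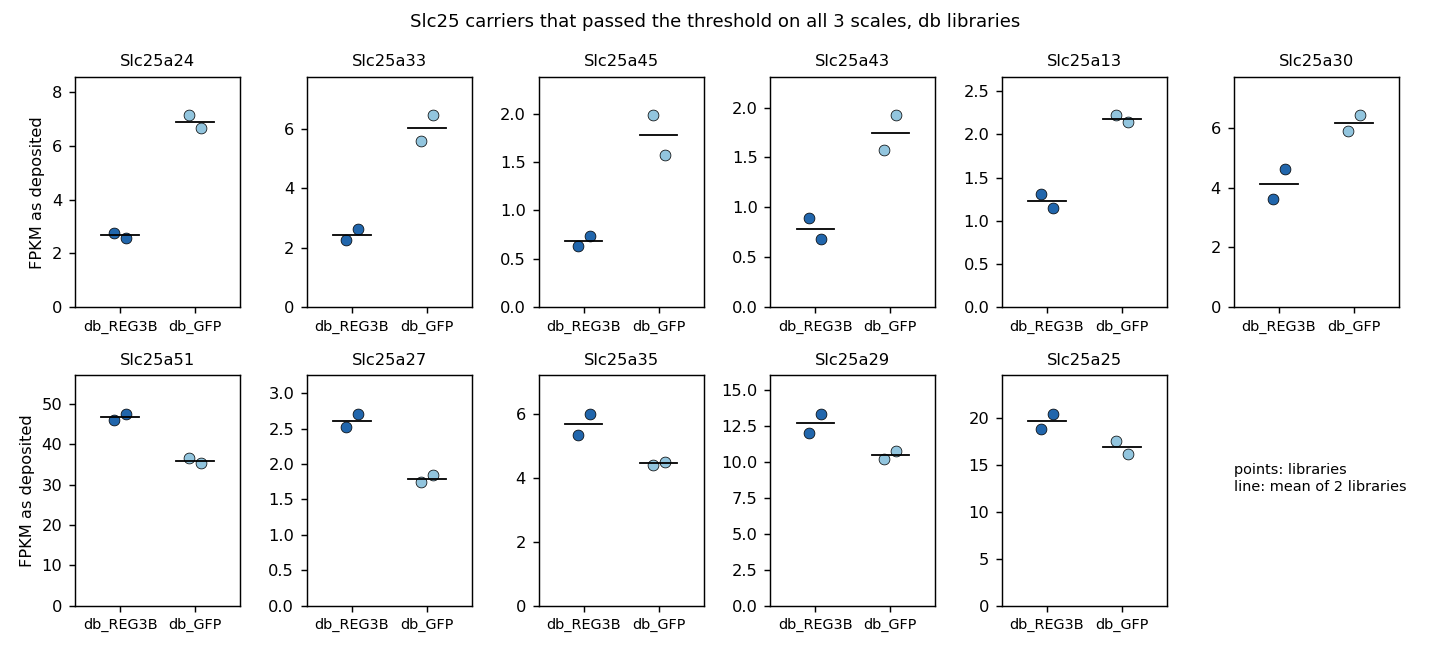
FPKM as deposited of the 11 Slc25 carriers called by limma in the same direction on all 3 scales, in 2 db_REG3B and 2 db_GFP libraries (points, with the mean as a line, axes from 0). The 6 in the upper row are lower in db_REG3B and the 5 in the lower row are higher, and no pair of groups overlaps. Slc25a45 and Slc25a43 passed the filter through db_GFP alone.

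The promoters of the pair with the largest falls in db_REG3B are shown with that of Slc25a13, the aspartate-glutamate carrier that fell there. They are the 250 bases before the start that RefSeq gives on GRCm38.p6, 5′ to 3′ on the gene's strand, at chr3:109122899-109123148 (plus strand, Slc25a24), chr4:149774268-149774517 (minus strand, Slc25a33) and chr6:6217174-6217423 (minus strand, Slc25a13). The annotated gene of Slc25a13 reaches to position 6217304, so that the part of this window holding both marked matches lies inside the gene. Capitals mark matches on either strand to the GC box GGGCGG, to the box named CCAAT or to the E-box CACGTG.
Slc25a24: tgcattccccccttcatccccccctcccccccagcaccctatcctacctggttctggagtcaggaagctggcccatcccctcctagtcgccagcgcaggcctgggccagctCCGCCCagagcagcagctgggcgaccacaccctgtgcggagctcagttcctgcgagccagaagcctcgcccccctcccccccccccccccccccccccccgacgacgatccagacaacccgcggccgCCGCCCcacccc
Slc25a33: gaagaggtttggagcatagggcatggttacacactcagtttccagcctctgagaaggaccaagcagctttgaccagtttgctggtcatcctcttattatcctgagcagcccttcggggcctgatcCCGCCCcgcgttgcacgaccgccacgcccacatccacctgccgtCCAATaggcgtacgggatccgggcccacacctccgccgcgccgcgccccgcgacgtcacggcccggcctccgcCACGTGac
Slc25a13: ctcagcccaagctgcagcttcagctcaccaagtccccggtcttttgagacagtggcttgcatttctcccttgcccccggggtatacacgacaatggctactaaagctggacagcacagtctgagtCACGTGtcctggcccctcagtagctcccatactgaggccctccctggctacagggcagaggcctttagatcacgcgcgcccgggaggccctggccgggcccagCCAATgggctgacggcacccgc

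No motif was held by all 3 windows. Slc25a24 holds 2 GC boxes and neither of the others, Slc25a33 holds 1 of each kind, and Slc25a13 holds a CCAAT box and an E-box. Their GC contents were 72.8%, 64.4% and 62.8%. Over 45 promoters of 35 members, GGGCGG was present in 71.1% (32.7% of all 32851 promoters of that length), CCAAT in 46.7% (33.8%), CACGTG in 17.8% (6.02%), the core of the NRF1 motif in 4.44% (3.74%) and TTCNNNGAA, a STAT motif, in 2.22% (7.02%), each searched on both strands. These are matches of letters, and promoters of the same gene overlap.

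Enzymes and channels that work with the carriers were counted in db islets too. Of 19 partner enzymes 7 were higher and 3 lower in db_REG3B (52.6% together, near the 45.3% of all genes). Pcx rose by 0.88 (SE 0.04, adjusted p = 4.19e-06), Idh2 by 0.44 (adjusted p = 0.000141) and Gpd2 by 0.28 (adjusted p = 0.00213), and Glud1 and Cs fell by 0.42 and 0.20. Ucp2 was lower by −0.39 (adjusted p = 6.48e-05). Of the outer membrane channels Vdac1 was higher by 0.44 and Vdac2 lower by −0.22. Of the 9 members of the import machinery 2 were higher (Tomm70a and Timm29) and 2 lower (Timm22 and Tomm22).

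Markers of most other cells were lower in db_REG3B. Of the stellate cell markers 7 of 8 were called lower (median −2.22), with summed levels of 242 and 254 FPKM in db_REG3B and 1336 and 1317 FPKM in db_GFP. All 8 endothelial and all 6 tested duct markers were lower, as were 12 of 13 tested immune markers (Cd79a was higher), all 6 alpha cell markers and 13 of 19 tested acinar markers, of which 2 were higher. Of 10 beta cell markers 9 were higher (median 0.76), and the list took 59.5% and 59.8% of summed FPKM in db_REG3B and 40.6% and 40.8% in db_GFP. Ms4a1 was listed at 0 in both db_GFP libraries. The part of these cells in the falls of Slc25a24, Slc25a33, Slc25a13 and the other members was not tested. Fewer members were called without db_GFP 1, db_GFP 2 or db_REG3B 2, but not without db_REG3B 1. The share of all genes called in those fits is not given here. The calls of Slc25a13, Slc25a24, Slc25a27, Slc25a29, Slc25a30, Slc25a33, Slc25a35 and Slc25a51 were made whichever library was left out.

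Ratios of related carriers within a library do not depend on the scaling between libraries. They can still differ with the mix of cells in a library, and the part of that mix was not tested. The ratio of Slc25a5 to Slc25a4 was 1.15 and 1.09 in KO_REG3B-Fc, 1.69 and 1.88 in KO_PBS and 1.38 and 1.32 in CTR_PBS, so that the 3 groups did not overlap. The same ratio was 1.08 and 1.09 in db_REG3B and 1.14 and 1.15 in db_GFP, 1.27 and 1.76 in BcBKO HFD and 1.61 and 2.00 in flox/flox HFD, and between 1.38 and 1.77 in WT. The ratio of Slc25a12 to Slc25a13 was 8.23 and 8.56 in KO_REG3B-Fc, 5.84 and 5.08 in KO_PBS and 10.1 and 6.94 in CTR_PBS. Among db libraries it was 24.9 and 28.9 in db_REG3B and 14.9 and 15.2 in db_GFP, and over all 19 libraries it ran from 4.15 to 28.9. Within WT, Slc25a5 to Slc25a4 was 1.74 and 1.77 in WT 2 and WT 3, with acinar shares of 45.2% and 47.3%. It was 1.38 in WT 4, with 6.15%. Slc25a12 to Slc25a13 was 6.24 and 4.15 in WT 2 and WT 3, and 14.2 in WT 4. In both ratios WT 1 and WT 5 lay between. These ratios show unequal change of a pair, not which of the pair moved, and with 2 libraries a group they were given no test.

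**Figure D5:**
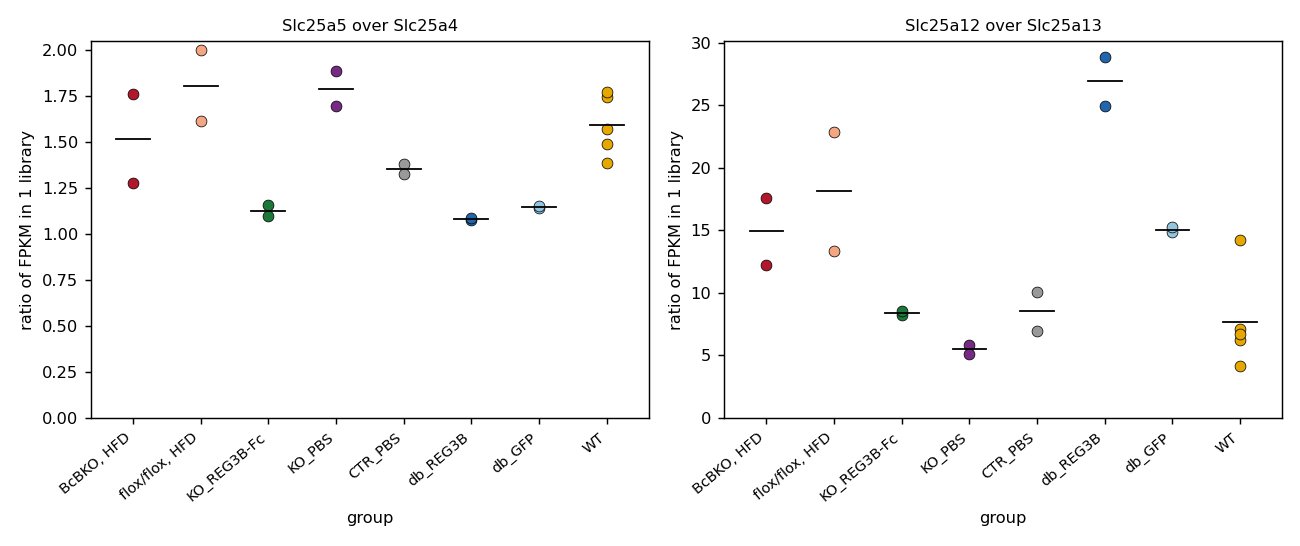
Ratio of FPKM within each library for Slc25a5 over Slc25a4 and for Slc25a12 over Slc25a13, by group (points are libraries, lines are group means, axes from 0). KO_PBS lies above KO_REG3B-Fc and CTR_PBS in the first ratio, at 1.69 and 1.88, and db_REG3B lies above db_GFP in the second, at 24.9 and 28.9.

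The REG3B comparisons share no libraries, differ in the agent and were made in separate tables, so their values stand side by side only. Slc25a13 was lower in both (−0.37 with REG3B-Fc in knockout islets and −0.48 in db islets), as were Slc25a33 (−0.34 and −0.98), Slc25a45 (−0.63 and −0.69, with the limit of the filter) and Slc25a5 (−0.43 and −0.14). The call of Slc25a5 was lost in both after composition scaling (−0.07 and −0.0028, adjusted p of 0.0901 and 0.95). In db islets the authors' deposited table did not call it either (−0.10, adjusted p = 0.151). Slc25a25 was higher in both (0.30 and 0.26), as was Slc25a32 (0.30 and 0.23). The authors' deposited table did not call Slc25a32 in db islets (0.25, adjusted p = 0.13) or Slc25a33 with REG3B-Fc (−0.56, adjusted p = 0.248). By limma, 44.9% and 45.3% of all genes were called in these comparisons, and the share called in both was not determined. Slc25a51, Slc25a28 and Slc25a35 passed in opposite directions after median scaling. The authors' deposited table called none of them in both comparisons. As deposited, Slc25a13, Slc25a33, Slc25a5, Slc25a51 and Slc25a28 had the opposite sign with REG3B-Fc in knockout islets (0.06, 0.02, 0.20, 0.44 and 0.35), so that on this scale Slc25a35 alone of Slc25a51, Slc25a28 and Slc25a35 differed in sign.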

How the data were processed

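Islet mRNA was read in pairs on a BGISEQ-500, per the labels. For 19 libraries the authors deposited FPKM, and for 4 comparisons they added log2 fold changes and p-values, raw and adjusted. For the p-values the authors used DESeq2 in the PBS and db tables, per the file headers. GRCm38.p6 is from the submitters' processing notes. Aligner, counting program and depth are not given in the sources used here. Tied to no sample and not used were 4 value columns, all deposited TPM.

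Each library's FPKM were divided by the median of its gene ratios to the geometric mean over libraries. Then log2(value + 1) went into limma 3.58.1 under R 4.3.3, with trended empirical Bayes, two-sided, all groups of a table in 1 fit, and Benjamini-Hochberg adjustment over all genes tested (threshold 0.05). Genes needed at least 1 FPKM in at least 2 libraries. The fit was also run on simulated data in which few genes were changed, unlike the PBS and db tables, so that run does not bear on the choice of scale. The authors' deposited fold changes run in the direction used here. No pairing of libraries is stated.

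Named were the aspartate, glutamate and citrate carriers, the 8 most expressed members, and per comparison up to 8 higher and 8 lower called members by size of change, or the 3 of smallest p. From each pathway list up to 3 called genes per direction were named. Members and lists were chosen with earlier results of these data known, and Rangrf and Gm13068 after their overlap was seen. Values of 1 member and of some listed genes are not reported here. Alternatives were deposited FPKM, composition scaling, no filter, a pseudocount of 0.1, each library left out, a replicate block and fits of only the compared groups. Overlap came from GENCODE M21 and promoters from RefSeq on GRCm38.p6.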

Additional observations from a re-analysis of the deposited data

Results flagged for a closer look

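In the WT group of 5 libraries, 36 members with a median of at least 1 FPKM were checked for a library far from the others (Dixon's ratio of gap to range above 0.71). Slc25a3 stood out in WT 1 at 165.69 FPKM, next to 132.44 FPKM in the nearest library. Slc25a20 stood out in WT 4 at 11.7 FPKM, next to 7.71 FPKM. Chance flags about 1 in 20 groups, so 2 of 36 is near that rate.

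With REG3B, 3 members passed after median scaling in opposite directions without overlap of the groups in either comparison, and the difference itself was not tested. Of all genes, 44.9% were called with REG3B-Fc in knockout islets and 45.3% in db islets. The groups did not overlap for 72.5% and 73.3% of all genes. The share of all genes that passed in opposite directions was not determined, so this count has no background beside it. Slc25a51 changed by −0.16 for KO_REG3B-Fc against KO_PBS and by 0.43 for db_REG3B against db_GFP. With REG3B-Fc it was higher as deposited (0.44) and after composition scaling (0.18), and the authors' deposited table did not call it (−0.15, adjusted p = 0.0926). Slc25a28 changed by −0.25 for KO_REG3B-Fc against KO_PBS and by 0.20 for db_REG3B against db_GFP, and was higher with REG3B-Fc as deposited (0.35) and after composition scaling (0.09). The authors' deposited table called Slc25a28 in neither comparison (−0.21 and 0.24, adjusted p of 0.205 and 0.0801). Slc25a35 changed by −0.88 for KO_REG3B-Fc against KO_PBS and by 0.34 for db_REG3B against db_GFP. The authors' deposited table called Slc25a35 with REG3B-Fc (−1.05, adjusted p = 2.96e-06) but not in db islets (0.43, adjusted p = 0.18).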

How the results depend on the processing

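The scale decided most counts in the PBS table. For KO_PBS against CTR_PBS, 12 members higher and 5 lower became 2 and 29 on FPKM as deposited and 3 and 25 after composition scaling, with 1021 and 9603, and 1295 and 8295, of all genes. For KO_REG3B-Fc against KO_PBS, 3 and 14 became 30 and 1 as deposited and 24 and 3 after composition scaling, with 10157 and 822, and 8503 and 1198, of all genes. For KO_REG3B-Fc against CTR_PBS, deposited FPKM gave 4 and 1 members and 1977 and 338 genes, and no filter gave 370 lower genes. For db_REG3B against db_GFP, 11 higher members became 5 as deposited and 18 after composition scaling, with 1530 and 4812 genes. Composition scaling left the median gene shifted by −0.29, 0.30 and 0.11 in KO_PBS against CTR_PBS, KO_REG3B-Fc against KO_PBS and db_REG3B against db_GFP. In the HFD table no filter gave 0 genes higher, and the block gave 1 lower.

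Among called members and the aspartate, glutamate and citrate carriers, signs turned as follows, as deposited and then after composition scaling where both turned. In the HFD table these were Slc25a1 (0.0747, 0.0518) and Slc25a12 (0.0247, 0.00235). For KO_PBS they were Slc25a13 (−0.0552 as deposited), Slc25a35 (−0.183, −0.0351), Slc25a5 (−0.29, −0.11), Slc25a3 (−0.31, −0.13), Slc25a11 (−0.36, −0.19), Slc25a15 (−0.23, −0.10) and Slc25a20 (−0.32, −0.16). For KO_REG3B-Fc against KO_PBS they were Slc25a1 (0.54, 0.28), Slc25a22 (0.52, 0.27), Slc25a28 (0.349, 0.0944), Slc25a3 (0.42, 0.15), Slc25a11 (0.41, 0.15), Slc25a16 (0.37, 0.13), Slc25a37 (0.21, 0.02), Slc25a39 (0.48, 0.22) and Slc25a51 (0.44, 0.18), and as deposited only Slc25a13 (0.0577), Slc25a5 (0.20), Slc25a15 (0.12) and Slc25a33 (0.0223). For KO_REG3B-Fc against CTR_PBS they were Slc25a12 (0.0133) and Slc25a13 (0.0025), as deposited. The scales differ by construction in the gene they hold level.

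Leaving out each library gave 0 to 1 genes higher in the HFD table, with Slc25a12 from −0.128 to 0.00807 and Slc25a13 from −0.0769 to 0.310. For KO_PBS it gave 6 to 8 members higher, 3 to 6 lower and 1392 to 1987 genes lower. For KO_REG3B-Fc against KO_PBS it gave 7 to 15 members lower, with Slc25a1 from −0.14 to 0.0025. For KO_REG3B-Fc against CTR_PBS it gave 0 to 0 members higher, 1 to 2 lower, 236 to 289 genes higher and 230 to 302 lower, with Slc25a13 from −0.217 to 0.0896. For db_REG3B it gave 6 to 9 members higher and 4 to 12 lower. A group left with 1 library is assumed to vary like the others. Where no number of genes stands beside a count of members, that count cannot be set against the background.

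Under a replicate block the calls were 10 members higher and 5 lower for KO_PBS, 4 and 15 for KO_REG3B-Fc against KO_PBS, 2 and 4 for KO_REG3B-Fc against CTR_PBS, 10 and 10 for db_REG3B, and 0 and 0 in the HFD table. The shares of all genes called under the block are not given here, so these counts have no background beside them. Replicate differences correlated at 0.67 between the HFD groups, at 0.02, 0.05 and −0.02 in the PBS table and at −0.05 in the db table, and the numbers are not stated to mark pairs. In each group the 8 most expressed members were the same before and after scaling.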
